A study of Homo sapiens with 6 samples.

Results

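The genes described here encode enzymes that attach ubiquitin to proteins or take it off again. They were taken by symbol from the retained intron and skipped exon tables: ubiquitin-specific proteases (USP), E2 conjugating enzymes (UBE2), UBE3 ligases, OTU-family deubiquitinases (OTUB and OTUD), cullins (CUL) and F-box proteins (FBX). An event, 1 intron or 1 exon with its neighbours, was a member when its inclusion and skipping junctions averaged 20 or more reads per library. Of 21158 retained intron events, 216 had such a symbol and 135 of these, in 48 genes, reached the read minimum. Of 153168 skipped exon events, 2213 had such a symbol and 1609 of these were members, on 1328 exons of 133 genes. The symbol rule also takes in some relatives that do not handle ubiquitin, such as UBE2M, which conjugates NEDD8, and the pseudogene UBE2Q2P1. Under USP it takes in USP2-AS1, an antisense RNA, and USP6NL, which are not ubiquitin-specific proteases.

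Ubiquitin is passed from an E1 activating enzyme to an E2 and then, with the help of an E3 ligase, to a lysine of the substrate. Cullins are the scaffolds of the largest group of E3 ligases, and F-box proteins are the exchangeable subunits that bring substrates to CUL1. UBE3 enzymes are HECT ligases that carry ubiquitin on their own cysteine. USP and OTU enzymes cut ubiquitin from substrates or trim its chains.

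RNA came from HEK293A-TOA, which is an established line from human embryonic kidney grown here in Tet-free serum, after transfection with non-target siRNA (siNT, 3 biological replicates) or with a mixture of siRNAs against SFSWAP (siSFSWAP, 3 biological replicates). The siRNA was used at 40 nM, the cells were split on the next day, and RNA was taken after 5 days of knockdown with no other treatment. SFSWAP belongs to the SR-related splicing regulators, and the comparison asks which introns and exons depend on it. Within a group, a, b and c name the libraries by their place in the lists, a name that pairs no siNT library with a siSFSWAP library. All 6 come from 1 cell line, and the siRNAs were used as a mixture, so their effects cannot be told apart in these libraries. With its western blot of the knockdown, the study states that siRNA #1 was not effective.

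Spliced reads of SFSWAP were 79.7, 86.5 and 80.2 CPM (each library scaled to the same total) in siNT and 34.7, 34.6 and 21.3 CPM in siSFSWAP, a log2 change of −1.46 (SE 0.16, limma adjusted p = 0.000353). The tables do not name their groups, which were taken from the study's definition of the inclusion difference, and these reads check that order. Of 9 marker genes, VIM was at 221 to 373 CPM and KRT18 at 38.7 to 62.6 CPM. PAX2, LHX1 and NEFM, which are also known from this line, and the markers of other cells PTPRC, ALB, COL1A2 and CDH5 have no row in the skipped exon table, so they check nothing. The skipped exon table held 19515010 to 55274283 junction reads per library and that of retained introns 2767079 to 7465949, with siNT library a the deepest in both. A tested member event had a median of 64 to 196 reads in a library. Library a of siNT lay closer to the siSFSWAP libraries than the other siNT libraries did: over 45 member introns with mean inclusion from 10 to 90%, its median absolute distance to a siSFSWAP library was 5.79 to 7.28 percentage points, against 9.33 to 15.9 points for libraries b and c. Over all 3532 such introns these distances were 5.35 to 6.05 points for library a and 9.05 to 11.3 points for libraries b and c. Adjusted p without siNT library a is therefore given beside the introns with an unadjusted p under 0.05 described below. That library was singled out by its values at these same introns, so its removal favours a wider difference. These adjusted p rest on the remaining siNT libraries and are not separate support. With any 1 other library left out, no member intron was called.

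Inclusion is the share of transcripts that keep an intron or exon, computed from the junction reads after division by the effective lengths of both forms. An event was called when its adjusted p (quasi-binomial test, adjusted over the whole table) was at most 0.05 and its mean inclusion changed by at least 20 percentage points. Of the member introns 115, in 46 genes, could be tested, and of the member exon events 735, on 675 exons of 123 genes. The others had fewer than 5 reads of the rarer form over the 6 libraries: 15 introns and 742 exon events had too few skipping reads, and 5 and 132 too few inclusion reads. Changes are siSFSWAP minus siNT.

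No member intron was called, and 7 exon events in 6 genes were. Inclusion was lower in siSFSWAP at exons of USP47, UBE2E1 (at 2 exons), USP10, CUL5 and USP53, and higher at 1 exon of an E2 gene. The sequences of the exons with the largest change are shown first, since several of these exons can start at either of 2 acceptor sites and both forms are set against the same skipping reads. They were read from GRCh38, 5′ to 3′ on the plus strand. In the next lines the exon as annotated, or its shared last part, is in capitals, and the extension to the upstream acceptor and the neighbouring introns are in lower case.
USP47, chr11:11954812-11954954, capitals mark the 48-nt exon: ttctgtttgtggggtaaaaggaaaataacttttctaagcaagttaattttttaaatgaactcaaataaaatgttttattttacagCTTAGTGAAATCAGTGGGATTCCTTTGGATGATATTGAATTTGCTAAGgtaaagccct
UBE2E1, chr3:23811332-23811520, capitals mark the 51-nt exon: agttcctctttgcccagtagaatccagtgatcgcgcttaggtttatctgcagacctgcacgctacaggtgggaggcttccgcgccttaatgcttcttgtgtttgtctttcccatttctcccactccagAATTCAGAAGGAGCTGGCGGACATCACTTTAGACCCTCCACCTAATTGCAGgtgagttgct
UBE2E1, chr3:23889092-23889269, capitals mark the last 12 nt of the 148-nt exon: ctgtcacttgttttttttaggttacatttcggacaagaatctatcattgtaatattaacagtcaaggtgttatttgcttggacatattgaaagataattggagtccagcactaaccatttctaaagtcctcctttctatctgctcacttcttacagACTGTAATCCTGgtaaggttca
In USP47 and in the first UBE2E1 exon the annotated exon is the shorter form, and the extensions of 65 and 108 nt are not in GENCODE release 44. In the other UBE2E1 exon the annotated exon is the longer form, and the 12-nt form begins 136 nt further downstream at an acceptor that is not annotated.

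USP47 is a deubiquitinase known for acting on the repair polymerase beta. Its 48-nt coding exon, exon 26 of 28 in the MANE Select transcript, divides by 3. In the form with 113 nt, inclusion was 96.2, 93.1 and 100% in siNT and 65.0, 42.9 and 18.4% in siSFSWAP, so all siSFSWAP libraries were below all siNT libraries and differed widely among themselves. The mean went from 96.4% ± 3.46 to 42.1% ± 23.3 (SD, n = 3 each), a change of −54.3 points and the largest of any tested member (adjusted p = 1.51e-05). The 48-nt form, with a mean of 190 reads against 31.8, went from 99.6, 99.2 and 100% to 94.5, 86.1 and 80.9%, a change of −12.4 points (adjusted p = 2.06e-05). Both forms share the same skipping reads, of which siNT had 1, 1 and 0 and siSFSWAP had 7, 12 and 20. The fall of the 113-nt form is therefore set against few inclusion reads of its own (50, 27 and 20 in siNT and 26, 18 and 9 in siSFSWAP), and that of the 48-nt form against 363, 177 and 144 and then 177, 110 and 126. The next intron downstream, of 89 nt at chr11:11954945-11955033, was retained at 0.474, 1.46 and 1.69% in siNT and 1.95, 2.81 and 9.25% in siSFSWAP (adjusted p = 0.205, and 0.208 without siNT library a).

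UBE2E1 is an E2 enzyme with a serine-rich N-terminal extension before its conjugating core. At its 51-nt coding exon, exon 3 of 6 in the MANE Select transcript, inclusion was 92.7, 94.8 and 95.6% in siNT and 81.6, 73.4 and 74.9% in siSFSWAP. That change of −17.8 points had the smallest adjusted p of any member event (2.98e-09) but stayed under the size threshold. Its 159-nt form, which starts at the upstream acceptor, went from 41.9, 60.5 and 63.6% to 21.6, 17.1 and 21.0%, a change of −35.4 points (adjusted p = 3.88e-06), and was called. Skipping reads of the exon numbered 52, 15 and 14 in siNT and 67, 58 and 64 in siSFSWAP, which is more in siSFSWAP although siNT library a was the deepest. At the exon of 148 nt, exon 5 of 6, the annotated form went from 99.5, 97.6 and 99.6% to 96.7, 92.7 and 85.0% (a change of −7.40 points, adjusted p = 0.000265). The 12-nt form went from 94.4, 73.9 and 94.4% to 66.7, 36.2 and 33.8% (a change of −42.0 points, adjusted p = 6.33e-05), on a mean of 32.2 reads against 526. Measured with exon 3 as its upstream neighbour, the 148-nt exon changed by −0.438 points on a mean of 302 reads (adjusted p = 0.917).

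USP10, a deubiquitinase of p53 and a partner of the stress granule protein G3BP1, had more reads in siSFSWAP that join exon 2 to exon 5, leaving out exons 3 and 4. Exon 3 has 61 nt and is coding. It is shown, in capitals with its intron flanks, because it was called.
USP10 exon 3, chr16:84740289-84740379: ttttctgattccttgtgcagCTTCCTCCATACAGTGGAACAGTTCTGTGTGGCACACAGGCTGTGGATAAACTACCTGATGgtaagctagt
Against the junction that joins exon 2 to exon 5, inclusion of exon 3 was 84.5, 88.1 and 82.8% in siNT and 63.1, 63.6 and 43.9% in siSFSWAP (a change of −28.3 points, adjusted p = 0.00578). Measured against the same junction, exon 4, with 1041 coding nt, went from 92.0, 94.6 and 89.0% to 79.0, 73.8 and 68.1% (a change of −18.2 points, adjusted p = 0.00603). That junction had 9, 3 and 5 reads in siNT and 17, 11 and 19 in siSFSWAP. Inclusion of exon 3 against the junction from exon 2 to exon 4 was 91.8, 85.3 and 91.9% in siNT and 84.8, 95.8 and 80.5% in siSFSWAP, with overlapping groups (adjusted p = 0.577). Inclusion of exon 4 against the junction from exon 3 to exon 5 was 95.2 to 98.9% in siNT and 96.4 to 98.4% in siSFSWAP (adjusted p = 0.972).

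Of the cullins, CUL5 is the scaffold of ligases that take SOCS-box proteins as substrate receptors. Its called event is a 713-nt exon at chr11:108104190-108104902, annotated only in a transcript marked for nonsense-mediated decay, in which 192 nt are coding. Its acceptor is also that of the last exon of the MANE Select transcript, so the inclusion reads include ordinary CUL5 RNA, and the skipping reads join exon 18 to a site further inside that last exon. The acceptor is atttttattttttcttttagGAA, with exon bases in capitals, and the donor is TAGgtgaga. Inclusion was 89.4, 88.4 and 96.5% in siNT and 73.1, 68.6 and 68.8% in siSFSWAP, a change of −21.3 points (adjusted p = 0.00162) with no overlap. Skipping reads numbered 12, 7 and 2 in siNT and 23, 16 and 17 in siSFSWAP.

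CUL1, the scaffold of SCF ligases, was under the size threshold, and it and the 2 CUL4 exons named next were chosen after their values were seen. Exon 5 of 22 in the MANE Select transcript has 51 coding nt and divides by 3. It is shown with the exon in capitals because its groups were far apart at moderate depth.
CUL1 exon 5, chr7:148759284-148759364: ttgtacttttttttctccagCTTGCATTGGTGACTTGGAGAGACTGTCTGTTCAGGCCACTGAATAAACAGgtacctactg
Inclusion was 98.0, 100 and 100% in siNT and 88.0, 86.3 and 75.2% in siSFSWAP, a change of −16.2 points (adjusted p = 2.95e-06), with 6, 0 and 0 skipping reads in siNT and 15, 11 and 22 in siSFSWAP. CUL4A and CUL4B, which pair with DDB1, each had 1 coding exon with a smaller fall: 108 nt of CUL4A changed by −4.03 points (adjusted p = 0.034), and 105 nt of CUL4B by −2.53 points (adjusted p = 0.0432). With CUL5 these are the cullin exons that had an adjusted p of at most 0.05, 4 of 45 tested events, all lower. Over all tested events 2.48% were lower and 4.12% higher by that criterion.

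The call in USP53 was the weakest of the lower ones. Its exon, 153 nt at chr4:119214070-119214222, is exon 2 of 19 in the MANE Select transcript and entirely non-coding. Its inclusion was 44.6, 42.9 and 27.3% in siNT and 13.3, 17.6 and 20% in siSFSWAP, a change of −21.2 points on a mean of 34.7 reads (adjusted p = 0.0249). Outside the naming rule, a 164-nt exon of UBE2D2, an E2 that works with many ligases, rose from a low level and went from 2.68, 2.72 and 2.56% to 4.37, 6.40 and 6.67% (adjusted p = 0.00122).

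**Figure D1:**
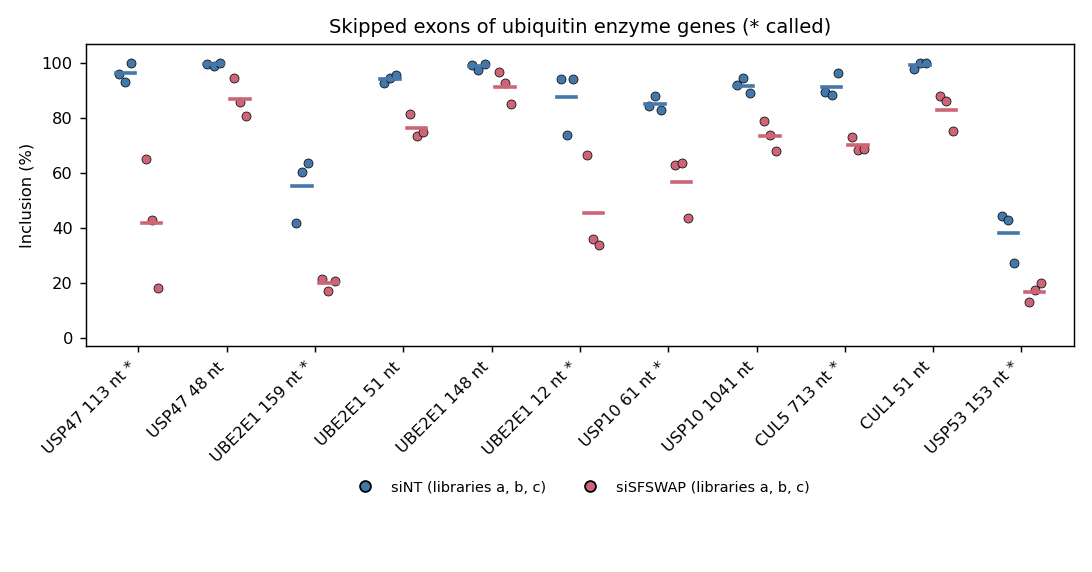
Inclusion in percent (vertical axis) of 11 skipped exon events, named by gene and exon length, in each siNT (blue) and siSFSWAP (red) library, with a bar at each group mean and an asterisk at the 6 events called lower. The groups are apart at every event shown, and the shallow forms of USP47 (113 nt) and UBE2E1 (159 and 12 nt) fall further than the deep forms beside them, which share their skipping reads.

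In numbers, 6 of 735 member exon events (0.816%) were called lower against 0.715% of all 48100 tested, and 1 (0.136%) was called higher against 1.71% of all. By the adjusted p alone, 14 member events were lower and 5 higher, read against the shares of the table given above. The siNT and siSFSWAP libraries did not overlap at 60 member events that were lower and 66 that were higher, against 9.03% and 14.2% of all tested events. The share of lower calls was thus near that of the whole table. Leaving out 1 library at a time, the USP47 call and both UBE2E1 calls remained in all 6 fits, USP10 and CUL5 in 5, and USP53 in 1. USP10 was not called without siSFSWAP library c and CUL5 not without siNT library c. By limma on the log2 odds all 6 lower events lost the call, with adjusted p of 0.0558 at USP47, 0.103 and 0.101 at UBE2E1, 0.142 at USP10, 0.12 at CUL5 and 0.251 at USP53. With inclusion not divided by effective lengths, CUL5 changed by −13.0 points and was not called. Without siNT library a, 5 member events were called lower and 2 higher, among the latter CUL7.

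By enzyme class, the called exons fell on E2 enzymes (2 lower and 1 higher of 250 tested events), USP genes (3 lower of 246) and cullins (1 lower of 45). None was called among 103 events of FBXO and FBXW genes, 45 of UBE3 genes, 25 of OTU genes or 21 of FBXL genes. Over all tested exon events 0.715% were called lower and 1.71% higher. At those shares the smaller classes would give few calls or none, so these counts do not set the classes apart. Of the member events, 125 had mean inclusion from 10 to 90%: 72 were lower in siSFSWAP and 53 higher, with a median change of −1.05 points. All 11893 such events had a median of +2.89 points. The median change was +0.673 points over 30 events of E2 enzymes, −1.76 over 50 of USP genes, −1.95 over 22 of FBXO and FBXW genes and −2.42 over 5 of cullins. It was +4.95 over 5 events of OTU genes, +0.279 over 8 of FBXL genes and −1.35 over 5 of UBE3 genes.

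**Figure D2:**
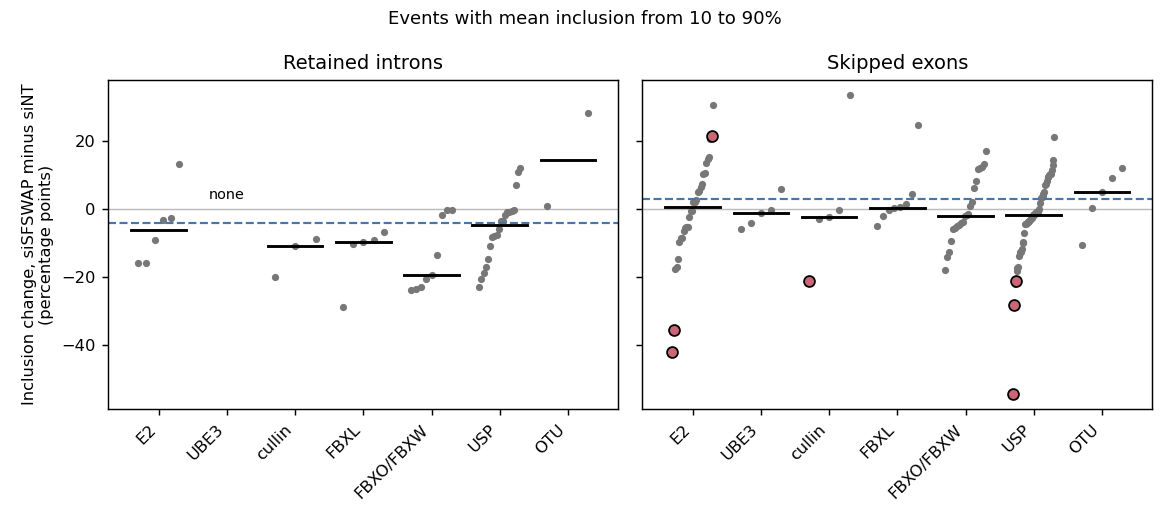
Change in inclusion (vertical axis, percentage points, siSFSWAP minus siNT) of each tested member with mean inclusion from 10 to 90%, by enzyme class, for introns (left) and exons (right), with class medians as black bars, called events in red and the median over all such events of the table as a dashed line. All 9 introns of FBXO and FBXW genes lie below 0, and exons of every class lie on both sides.

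The deepest uncalled exons of each class with siNT inclusion from 10 to 90% did not pass the test. In UBE2D3, an E2 that builds chains with many ligases, a 150-nt non-coding exon was included at 70.6, 72.9 and 70.7% in siNT and 58.4, 61.6 and 65.3% in siSFSWAP (adjusted p = 0.184), with groups that did not overlap. An 87-nt coding exon of USP8, a deubiquitinase of endosomal receptors, had means of 68.8% and 61.7% (adjusted p = 0.38) and overlapping groups. UBE3A, the ligase lost in Angelman syndrome, had means of 49.2% and 43.3% at a 120-nt exon (adjusted p = 0.649), and UBE3C 88.9% and 93.8% at one of 71 nt (adjusted p = 0.587). The means of the remaining ones, in UBE2O, CUL2, CUL3, FBXL19, FBXO22, FBXW4, OTUD3 and OTUD7B, differed by −4.04 to +6.14 points with adjusted p from 0.47 to 0.923. At FBXW4 and OTUD7B the groups did not overlap, and the 95-nt coding exon of FBXW4 was included at 89.9, 89.1 and 87.6% in siNT and 93.7, 94.1 and 92.5% in siSFSWAP. Among uncalled exons the largest changes were higher in siSFSWAP. A 91-nt coding exon of CUL7 went from 84.7, 66.1 and 41.0% to 92.1, 100 and 100% (adjusted p = 0.0552, and 0.00453 without siNT library a). The siNT libraries had 85, 15 and 4 inclusion reads and 8, 4 and 3 skipping reads there, so without library a the siNT values rest on few reads. A 151-nt exon of UBE2C, the E2 of the anaphase-promoting complex, went from 22.2, 33.3 and 28.6% to 42.1, 76.5 and 57.1% on a mean of 23 reads (adjusted p = 0.0575), while an overlapping 303-nt form on a mean of 790 reads changed by +1.03 points (adjusted p = 0.602). A 118-nt exon of FBXL4, on a mean of 21.2 reads, had means of 40.0% and 64.4% (adjusted p = 0.558).

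None of the 115 tested member introns was called in either direction, against 1.64% of all 10155 tested introns called lower and 0.138% called higher. At an unadjusted p under 0.05 (quasi-binomial test), 14 member introns of 7 genes were lower, which is 12.2% against 12.3% of all tested, and 3 were higher, against 3.31%. The groups did not overlap at 17 member introns that were lower and 7 that were higher, against 15.3% and 6.02% of all. Limma on the log2 odds called no member intron and 1 of all 10155. By these counts the member introns did not stand out from the table.

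The 14 introns belong to FBXW5, FBXW9, FBXL15, USP19, USP20, USP21 and USP39. Of these, 1 intron each of FBXW5, FBXW9 and USP19 came closest to the threshold on adjusted p. The USP19 intron was also under the size threshold. All 3 are shown with 10 bases of each neighbouring exon in capitals and the intron in lower case, read on the minus strand.
FBXW5 intron 4, chr9:136942686-136942778: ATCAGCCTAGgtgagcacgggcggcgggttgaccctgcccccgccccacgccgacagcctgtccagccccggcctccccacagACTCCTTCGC
FBXW9 intron 4, chr19:12691248-12691351: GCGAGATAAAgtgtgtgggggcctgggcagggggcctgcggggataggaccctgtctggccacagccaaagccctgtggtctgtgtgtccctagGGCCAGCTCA
USP19 intron 10, chr3:49115935-49116056: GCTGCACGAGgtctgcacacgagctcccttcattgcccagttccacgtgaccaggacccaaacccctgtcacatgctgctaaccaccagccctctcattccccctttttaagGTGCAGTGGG
All 3 lie between coding exons and begin with gt and end with ag. They are 73, 84 and 102 nt long with a GC content of 78.1, 67.9 and 55.9%.

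FBXW5 and FBXW9 are WD40-repeat F-box proteins, that is, substrate receptors of cullin ligases. FBXW5 intron 4 was retained at 49.0, 75.0 and 71.0% in siNT and 38.3, 43.9 and 43.8% in siSFSWAP, a change of −23.0 points on a mean of 272 reads (adjusted p = 0.0519). The groups did not overlap, and library a of siNT was the lowest of its group. Without it the groups differed by −31.0 points (adjusted p = 2.78e-15), while with another library left out the adjusted p reached 0.355. Intron 5, of 80 nt, was retained at 31.2, 38.3 and 46.9% in siNT and 24.3, 26.5 and 25.4% in siSFSWAP (adjusted p = 0.107, and 5.87e-05 without siNT library a). Intron 7, of 73 nt, went from 20.5, 42.3 and 51.7% to 14.0, 17.6 and 24.7% with overlapping groups (adjusted p = 0.171), and its 59-nt form with another acceptor from a mean of 88.0% to 67.4% (adjusted p = 0.177). Without siNT library a these adjusted p were 6.2e-15 and 0.00868, and with another library left out they reached 0.607 and 0.518. FBXW9 intron 4 was retained at 19.4, 43.3 and 30.2% in siNT and 9.21, 1.77 and 11.4% in siSFSWAP on a mean of 38 reads (a change of −23.5 points, adjusted p = 0.0514, and 3.96e-05 without siNT library a). Its introns 7 and 8 had means of 39.8% and 16.1% (adjusted p = 0.556) and of 14.7% and 3.47% (adjusted p = 0.182). Without siNT library a these became changes of −34.8 points (adjusted p = 0.00103) and −17.4 points (adjusted p = 6.73e-09). With another library left out, adjusted p reached 0.25, 0.898 and 0.609 at FBXW9 introns 4, 7 and 8. FBXL15, a leucine-rich-repeat F-box protein that targets the ligase SMURF1, had a 94-nt intron at chr10:102420958-102421051 outside its coding sequence. This intron is annotated in 1 transcript, FBXL15-202, and is absent from the MANE Select transcript. That intron was retained at 59.3, 71.1 and 60.6% in siNT and 30.4, 33.9 and 40.6% in siSFSWAP, a change of −28.7 points with no overlap on a mean of 36.7 reads (adjusted p = 0.069, and 0.0243 without siNT library a).

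Of the USP genes, USP19 encodes a deubiquitinase anchored in the endoplasmic reticulum. Its intron 10 was retained at 27.3, 35 and 27.3% in siNT and 7.87, 11.1 and 14.3% in siSFSWAP, a change of −18.8 points with no overlap (adjusted p = 0.0519, and 0.018 without siNT library a). A 108-nt form of this intron, on a mean of 25.2 reads, was retained at 31.7, 41.9 and 23.1% in siNT and 14.3, 33.3 and 25.9% in siSFSWAP, with overlapping groups (adjusted p = 0.56). USP21, a deubiquitinase of histone H2A, had 3 such introns with means of 44.7% and 21.9%, 19.9% and 11.5%, and 19.4% and 8.47% in siNT and siSFSWAP, with adjusted p of 0.183, 0.305 and 0.0932 and no overlap at any of them. Without siNT library a the adjusted p were 0.0108, 0.093 and 0.0187. The last intron of USP20, which lies outside the coding sequence, was retained at 72.9, 90.2 and 88.6% in siNT and 72.7, 68.6 and 48.9% in siSFSWAP (adjusted p = 0.311, and 0.0022 without siNT library a). USP39 encodes a splicing factor of the tri-snRNP rather than an active protease. Its intron named here is the last of transcript USP39-202, is absent from the MANE Select transcript and lies outside the coding sequence. That intron had means of 85.8% ± 4.03 and 77.9% ± 1.78 (SD, n = 3 each), with a quasi-binomial adjusted p of 0.212, and 0.334 without siNT library a. In the opposite direction was an intron of OTUD5, a deubiquitinase of innate immune signalling. This intron, number 4 of transcript OTUD5-201 and absent from the MANE Select transcript, was retained at 13.6, 13.8 and 14.7% in siNT and 19.2, 56.6 and 50.3% in siSFSWAP on a mean of 24.5 reads (a change of +28 points, adjusted p = 0.107, and 0.0372 without siNT library a). An overlapping form of 98 nt that shares 1 end with it, on a mean of 321 reads, had means of 2.08% and 2.85% (adjusted p = 0.742).

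**Figure D3:**
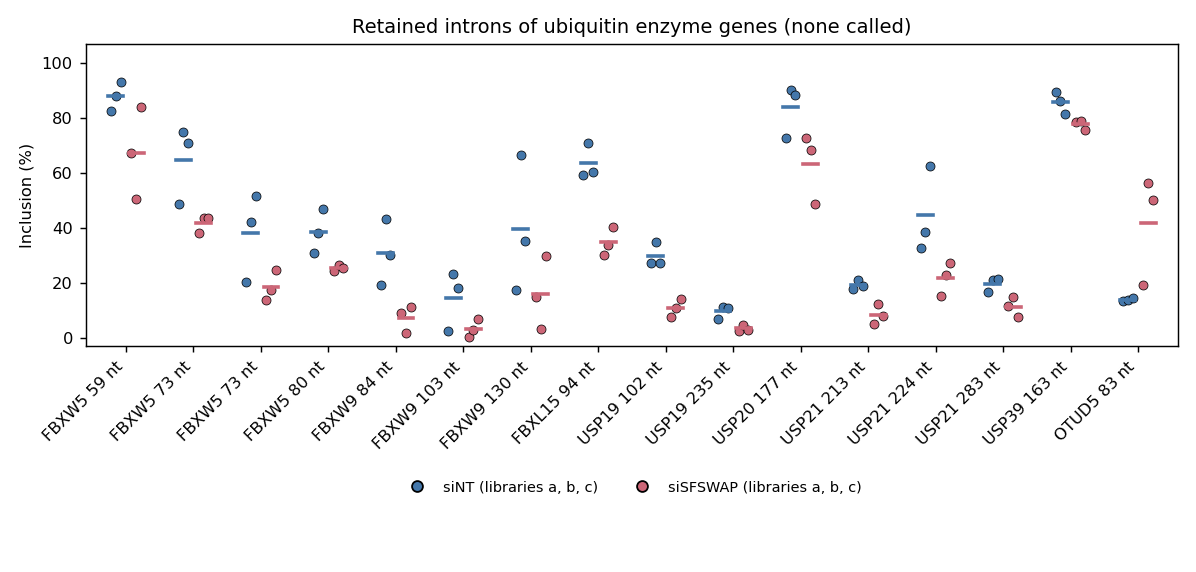
Inclusion in percent (vertical axis) of 16 retained introns, named by gene and intron length, in each siNT (blue) and siSFSWAP (red) library, with a bar at each group mean. The siNT libraries of FBXW5 and FBXW9 introns spread widely, and OTUD5 is the one intron shown that is higher in siSFSWAP.

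Without siNT library a, 10 member introns were called lower and 1 higher, of 104 tested. They lay in FBXL15, FBXW5, FBXW9, USP19, USP20, USP21 and, higher, OTUD5. Over the whole table the lower calls went from 167 of 10155 tested introns to 491 of 9483, and the higher ones from 14 to 44. With each of the other 5 libraries left out, no member intron was called. With no minimum on the reads of the rarer form, 3 were called lower (in FBXW5, FBXW9 and FBXL15) and 1 higher (in OTUD5) of 135, against 254 and 22 of 12867 introns in the whole table.

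Over the 45 member introns with mean inclusion from 10 to 90%, 39 were lower in siSFSWAP and 6 higher, and the median change was −8.38 points. Over all 3532 such introns, 2408 were lower and the median was −4.29 points. Medians per library of these member introns were 21.5, 37.5 and 36.4% in siNT and 16.4, 23.1 and 24.7% in siSFSWAP, so the median of siNT library a lay within the range of the siSFSWAP libraries. By class, the median change was −19.4 points over 9 introns of FBXO and FBXW genes, of which 6 lie in FBXW5 and FBXW9 and share their transcripts. It was −10.9 over 3 introns of CUL7, −9.72 over 5 of FBXL genes, −6.18 over 6 of E2 genes and −4.71 over 20 of USP genes. Both OTU introns in this range were higher. Further deep introns of each class did not pass the test: USP7 (means of 12.5% and 11.6%), OTUB1 (16.4% and 17.3%), UBE2Q1 (17.5% and 14.4%), UBE2O (18.1% and 15.5%), FBXO9 (16.8% and 16.4%), FBXL6 (66% and 59.2%) and CUL7 (25.9% and 14.9%), with adjusted p from 0.53 to 0.953.

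The size of these changes differed with GC content. Among the member introns in this range, 12 of 13 with a GC content of 60% or more were lower in siSFSWAP, with a median change of −13.4 points, against 1272 of 1541 and −8.80 points over all introns of that content. Under 50% GC, 12 of 15 member introns were lower with a median of −0.829 points, against 529 of 1076 and +0.168 points over all. Across the 45 member introns Spearman's rho between GC content and change was −0.486, and across all 3532 it was −0.381. The difference between siNT library a and the mean of libraries b and c had a rho of −0.502 with GC content over the same member introns. Over all 3532 introns that rho was −0.421, so library a differed from its own group along the same axis in both sets. These points share their libraries, and introns of 1 gene share their transcripts. The part of GC content and of that library in the intron values was not tested.

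**Figure D4:**
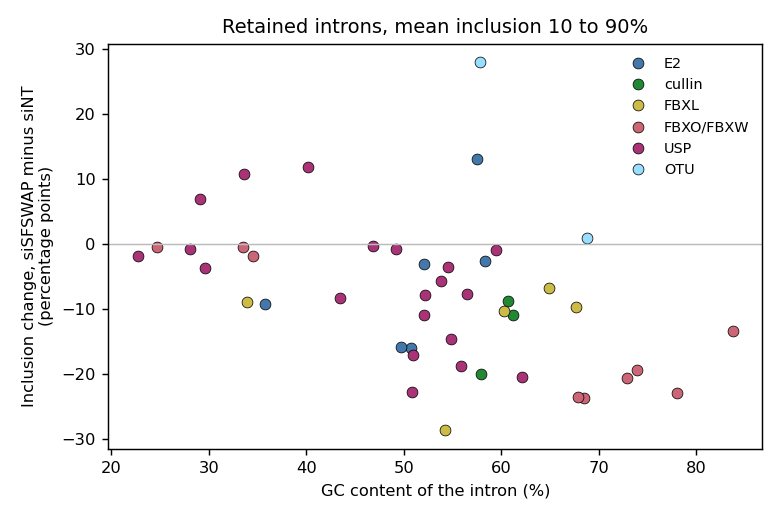
Change in inclusion (vertical axis, percentage points, siSFSWAP minus siNT) against GC content in percent (horizontal axis) of the 45 member introns with mean inclusion from 10 to 90%, coloured by enzyme class. The points slope downward (Spearman's rho −0.486), with the introns of FBXW5 and FBXW9 at the GC-rich end and OTUD5 as the highest point.

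What the member sequences share beyond their symbols was limited. Tested member introns had a median length of 122 nt (range 59 to 2807 nt) and a median GC content of 51.2%, against 161 nt and 55.4% over all tested introns. Of them 95.7% were in GENCODE release 44 as introns. Tested member exons had a median of 122 nt, the same as all tested exons, and a median GC content of 46.8% against 50%. Their length divided by 3 in 37.9%, against 39.0% of all. Only 58.5% of them were annotated with these ends, against 57.9% of all. At the read minimum, the introns just inside it were 1 of UBE2Z with a mean of 20 reads and 1 of USP19 with 20.5 reads, and those just outside were of UBE3C and CUL7 with 18.2 and 17.5 reads. The CUL7 intron just outside was retained at 15.4, 36 and 38.5% in siNT and 4.00, 11.1 and 18.2% in siSFSWAP. Exons just inside, of UBE3B and FBXW9, and just outside, of USP34 and FBXW8, were either at 0 to 3.23% or at 86.2 to 100% in every library.

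Spliced reads per gene, the junction reads of the skipped exon table summed over the exons of a gene as CPM, were compared for 137 member genes. Of these 16 had more and 25 had fewer in siSFSWAP at an adjusted p of at most 0.05 (limma), against 14.7% and 15.6% of 10780 genes tested. Both splicing and RNA amount can move these sums, and in bulk RNA fewer expressing cells and less RNA per cell cannot be told apart. Among E2 genes, 11 of 35 were lower and 1 higher. The largest fall of any member was in UBE2T, the E2 of the Fanconi anaemia pathway, from 51.4, 64.1 and 62.6 CPM to 38.3, 33.9 and 37.0 CPM (log2 −0.69, adjusted p = 0.00156). Among the others, UBE2A, UBE2E1, UBE2J2, UBE2K, UBE2M, UBE2V2, UBE2W and UBE2Z fell, by 0.29 to 0.53 on the log2 scale. The readthrough gene UBE2F-SCLY fell too (log2 −0.68), while UBE2F as its own entry changed by −0.02 (limma adjusted p = 0.915). Reads that fit both genes cannot be separated. The 1 that rose was the pseudogene UBE2Q2P1, which shares sequence with UBE2Q2 and is uncertain.

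Among the scaffolds, CUL9, a large cullin that binds p53, had the largest rise of any member, from 3.67, 2.05 and 1.75 CPM to 7.49, 8.37 and 7.91 CPM (log2 +1.55, adjusted p = 0.000842). CUL7, its closest relative, went from 15.3, 7.84 and 7.34 CPM to 16.6, 17.1 and 18.1 CPM (log2 +0.81, adjusted p = 0.0179), with siNT library a near the siSFSWAP level, while CUL3 and CUL4A fell by 0.27 and 0.30. Of the F-box genes 6 rose and 4 fell. FBXO17 went from 42.1, 48.4 and 42.4 CPM to 63.8, 83.4 and 90.7 CPM (log2 +0.82), FBXW4 rose by 0.62, FBXO11 by 0.59, and FBXL20 and FBXO25 by 0.78 and 0.41. FBXO5, the inhibitor of the anaphase-promoting complex also called EMI1, fell from 28.6, 31.2 and 33.1 CPM to 23.6, 18.3 and 17.8 CPM (log2 −0.63, adjusted p = 0.00486). FBXW5 had more spliced reads, from 98.0, 84.8 and 65.9 CPM to 126, 136 and 122 CPM (log2 +0.64, adjusted p = 0.00404), beside the uncalled intron values given above. USP19 and USP20, of which introns are also named above, rose by 0.47 and 0.59.

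The USP genes went both ways, with 7 higher and 7 lower of 44. USP28, USP42, USP5, USP35 and USP43 were also higher, by 0.38 to 0.52 on the log2 scale. The lower ones were USP36, a nucleolar deubiquitinase (log2 −0.59), USP12, USP33, USP14 of the proteasome, USP9X, USP39 and USP8. Of the genes with called exons, UBE2E1 fell by 0.39, and USP47, USP10, CUL5 and USP53 had log2 changes of −0.17, −0.14, −0.25 and −0.26 that did not pass the test. Of the OTU genes OTUD3 fell by 0.36, and none of the 4 UBE3 genes passed. Median GC content of the longest transcript was 57.1% for the member genes that rose and 40.3% for those that fell, against 55.3% and 45.1% over all tested genes. Its part in these changes was not tested. Without siNT library a, 23 member genes rose and 43 fell, while over all 10602 genes tested in that fit 2461 rose and 2590 fell. With 1 other library left out, 6 to 9 rose and 9 to 16 fell. UBE2T, CUL9, FBXO17, FBXW4, FBXO11, FBXO5 and FBXW5 passed in each of these fits.

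**Figure D5:**
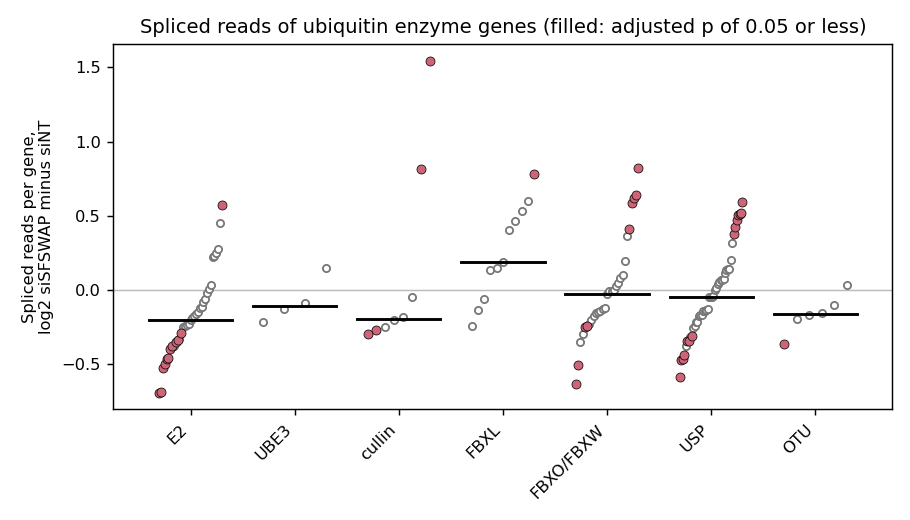
Change in spliced reads per gene (vertical axis, log2, siSFSWAP minus siNT) of 137 member genes by enzyme class, filled where the adjusted p was at most 0.05, with class medians as black bars. E2 genes lie mostly below 0 (median −0.20), while CUL9 is the highest point at +1.55.

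For comparison, 85 other genes of the pathway were read in the same fits: ubiquitin and E1 genes, partners of cullins, the COP9 signalosome, other ligases and other deubiquitinases. None of their 111 tested introns was called, against 1.64% of all tested introns called lower and 0.138% called higher. Of 588 tested exon events in 71 genes 7 were called lower and 4 higher, in 8 genes. Over all tested exon events the shares were 0.715% and 1.71%. The smallest adjusted p was at a 48-nt coding exon of UCHL1, a deubiquitinase abundant in neurons, at chr4:41261876-41261923, exon 6 of 9 in the MANE Select transcript. It was included at 98.8, 98.0 and 96.9% in siNT and 79.9, 74.3 and 72.3% in siSFSWAP on a mean of 2100 reads, a change of −22.4 points (adjusted p = 7.1e-31). STUB1, the chaperone-bound U-box ligase CHIP, had 3 called exon events that were higher. At overlapping forms of 1 exon, on means of 50.3 and 42.2 reads, the changes were +63.8 and +57.6 points. The deepest was an 88-nt coding exon that went from 90.2, 71.9 and 64.1% to 99.1, 100 and 98.8% (adjusted p = 1.36e-10). Lower calls fell on COPS6 and COPS7B, subunits of the signalosome that takes NEDD8 from cullins (changes of −23.2 and −24.3 points), on UBA1, the main E1 (−45.2 points, on a mean of 23.5 reads), and on the ligases RBCK1 (−26.1 points) and SMURF2 (−27.6 points). HECTD3, a HECT ligase, had 1 exon that was higher (+23.2 points). Partners of the cullins, among them SKP1 and RBX1, had none called of 120 events, a number at which those shares would also give few calls.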

How the data were processed

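Poly(A) RNA of 3 siNT and 3 siSFSWAP samples of HEK293A-TOA cells was sequenced by the authors as single-end reads. Per the submitters' processing notes and the study's methods, reads were trimmed with cutadapt 1.9.1 and aligned with STAR 2.7 in a pass repeated with the junctions found, to GRCh38 with the GENCODE annotation, and rMATS counted junction reads of each event. The deposited tables give, for each event, lists of inclusion and skipping junction read counts per library with effective lengths and inclusion fractions. They also give the authors' p-values, false discovery rates and inclusion differences, which were not used. The sources used here give no strandedness of the counting, so overlapping and antisense genes cannot be separated. The lists carry no sample names, and the first was taken as siNT from the study's own definition of the difference.

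Inclusion was recomputed from the deposited counts and effective lengths, and differed from the deposited fractions by at most 0.0005. Events that averaged 20 or more reads per library and had at least 5 reads of each form over the 6 libraries were tested with a quasi-binomial F test in R 4.3.3, with the dispersion moderated over all events by limma 3.58.1 along a trend on depth and kept at 1 or above. P-values were adjusted by Benjamini and Hochberg over each whole table. Calls needed an adjusted p up to 0.05 together with a mean change of 20 points or more. Spliced reads per gene were the counts of the deepest event of each exon summed over the gene, as CPM of the library's sum, and were compared with limma on log2(CPM + 0.5) for genes averaging 20 or more reads, which understates changes of low genes. Such p-values set the group difference against a moderated spread between these samples, and counts are reads, not molecules.

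Exons and introns were placed in GENCODE release 44 on GRCh38. The members, enzyme classes and pathway lists were chosen with earlier results of these data known. Named were the called events (at overlapping forms also the deepest), the 2 deepest uncalled events of each class and table with siNT inclusion of 10 to 90%, the 3 largest uncalled changes per table, the genes with the largest rise and fall, and called events of the pathway lists. Members with an adjusted p of at most 0.05 that missed the size threshold, the introns with an unadjusted p under 0.05, the 1041-nt forms of USP10 and the other genes that passed the test were chosen after their values were seen. Alternatives were a minimum of 50 reads, no minimum on the rarer form, a change of 10 points, limma on the log2 odds, inclusion without effective lengths, dispersion without the trend, another scaling, a pseudocount of 1 and no minimum for genes, and leaving out each library. The values of some member genes are not reported here.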

Additional observations from a re-analysis of the deposited data

How the results depend on the processing

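Depth limits shallow events most: the called forms of USP47, UBE2E1 (12 nt) and USP53 rest on means of 31.8, 32.2 and 34.7 reads per library, and counting intervals would cover counting error only. No paired analysis was possible because the lists carry no replicate numbers. The lower member exon calls, 6 as reported, were 3 at a minimum of 50 reads, 10 at a change of 10 points and 0 by limma on the log2 odds, and 4 to 7 with 1 library left out. The 1 higher exon call became 0 by limma on the log2 odds and 0 without effective lengths, and 0 to 2 with 1 library left out. For member introns, lower calls were 3 and higher calls 1 with no minimum on the rarer form, and 0 to 10 and 0 to 1 with 1 library left out. Member genes with higher spliced reads numbered 6 to 23 and those with lower spliced reads 9 to 43 with 1 library left out, the upper ends without siNT library a. By limma on the log2 odds the whole exon table had 23 lower and 40 higher calls, against 344 and 823. The cause of these differences was not tested.

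With 1 library left out, changes of 8 uncalled events took either sign: −2.22 to 1.35 points at the FBXO9 intron, −1.90 to 0.02 at USP7, −1.29 to 2.74 at OTUB1, −7.03 to 0.633 at the USP10 exon of 61 nt against exon 4, −2.86 to 2.95 at CUL3, −6.53 to 1.17 at CUL2, −2.29 to 3.44 at OTUD3 and −1.17 to 0.688 at the 1041-nt USP10 exon against exon 3. Over 58 named events, 626 values kept their direction and side of the threshold, 14 lost and 23 gained the call, and 16 changed sign.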
